A study of Mus musculus with 8 samples.

Results

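Sh3bgr, the gene of an SH3 domain binding glutamic acid-rich protein, was compared together with its relatives Sh3bgrl, Sh3bgrl2 and Sh3bgrl3 between soleus muscle of Ts65Dn and wild-type mice. The genes were chosen by name, as the probe sets annotated to 1 of these 4 symbols and to no other gene. Each symbol had 1 probe set, so that 4 of the 19938 genes measured are described. Ts65Dn mice, a model of Down syndrome, carry a freely segregating extra chromosome made up of distal chromosome 16 (MMU16) joined to the centromeric part of chromosome 17. Sh3bgr lies on the MMU16 part and is therefore present in 3 copies in Ts65Dn and 2 in wild type. Sh3bgrl2 on chromosome 9 and Sh3bgrl3 on chromosome 4 have 2 copies in both groups. Sh3bgrl lies on the X chromosome and has 1 copy in males of both groups. The 4 Ts65Dn mice are labelled by that strain alone, and the 4 wild-type colony controls are labelled B6EiC3SnF1/J, a mix of the B6 and C3H backgrounds. All were apparently healthy males aged 5 months whose muscles were taken in the basal state, with 1 array per mouse. The extra chromosome is inherited and not restricted to muscle, so that the model does not separate muscle fibres from other cells.

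The family consists of small proteins with a thioredoxin-like fold that resemble glutaredoxins but lack their catalytic cysteines. Sh3bgr carries a long acidic tail and is known from heart and skeletal muscle. Sh3bgrl and Sh3bgrl3 are found in many cell types, and Sh3bgrl2 is a further relative without the long tail. A proline-rich stretch in several members resembles ligands of SH3 domains and of EVH1 domains, which are found in Homer and Ena/VASP proteins. As only soleus was measured, the enrichment of Sh3bgr in striated muscle could not be checked against another tissue.

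Values are log2 values made by the authors with RMA, a method that corrects background, normalizes between arrays and summarises each probe set. Levels of different probe sets on such an array are not comparable, so the fold change of the deposited values compares a gene only with itself across arrays. Mean levels were used to match, split or filter genes where this is stated. The array median lay between 4.23 and 4.29 in Ts65Dn and between 4.37 and 4.56 in wild type, and the interquartile range was lowest in wild-type arrays 2 and 3, at 2.74 and 2.62. Over all genes the median log2 fold change was -0.10, and centring the arrays on their medians moved it to 0.08. Because fold changes differed with the level of a gene, level-matched values are given as well. For these, the 100 disomic genes closest to a gene in mean level were taken, and the median of their deviations was subtracted array by array. Of the muscle fibre markers (Acta1, Ckm, Mb, Ttn, Myh7 and 6 others) 0 of 11 passed the test, beside 5.26% of all genes. By limma 0 of 11 had an unadjusted p under 0.05, beside 34.8% of all genes. The mean of the 11 lay between 11.53 and 11.68 in Ts65Dn and between 11.46 and 11.63 in wild type. With 4 arrays a group, their number limits the precision.

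Sh3bgr was brighter in every Ts65Dn array than in any wild-type array, by a small margin, but did not pass the test over all genes. Its log2 values were 10.83, 10.95, 10.81 and 10.79 in Ts65Dn replicates 1 to 4. In wild-type replicates 1 to 4 they were 10.51, 10.36, 10.27 and 10.71. The groups did not overlap, with a gap of 0.079 between the lowest Ts65Dn array, replicate 4, and the highest wild-type array, replicate 4. The means were 10.84 ± 0.07 in Ts65Dn and 10.46 ± 0.19 in wild type (SD, n = 4). Of all genes, 22.7% had groups without overlap, 6.81% with Ts65Dn above and 15.9% with Ts65Dn below, and of the MMU16 genes in 3 copies 23.3% had Ts65Dn above.

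The log2 fold change of Sh3bgr was 0.38 (SE 0.13, 95% interval 0.10 to 0.66), which is 1.30-fold. Its unadjusted p by limma was 0.0122, a value below 0.05 that 34.8% of all genes also had, and its limma p adjusted by Benjamini-Hochberg over all 19938 genes was 0.0740. At an adjusted p under 0.05, 5.26% of all genes were called, 2.32% higher and 2.94% lower. The smallest limma adjusted p of any gene was 0.0449, so all calls lay between that value and 0.05. Of the 129 measured MMU16 genes in 3 copies, 16.3% were called higher, and Sh3bgr was not among them. A ratio of 3 copies to 2 corresponds to 0.58 on the log2 scale, which lies inside the interval.

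Level matching moved the log2 fold change of Sh3bgr from 0.38 to 0.31. The 100 genes nearest to it in level, with means between 10.46 and 10.85, had a median log2 fold change of 0.066. The level-matched values were 10.78, 10.92, 10.74 and 10.79 in Ts65Dn replicates 1 to 4 and 10.45, 10.46, 10.43 and 10.65 in wild-type replicates 1 to 4. The groups again did not overlap, as for 6.34% of all genes in that direction. The level-matched log2 fold change was 0.31 (95% interval 0.09 to 0.53), with an adjusted p of 0.127 by limma. Unlike the interval of the deposited values, this one lay below 0.58. Level matching narrowed the wild-type spread from an SD of 0.19 to one of 0.10, and left that of Ts65Dn at 0.08 against 0.07.

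**Figure D1:**
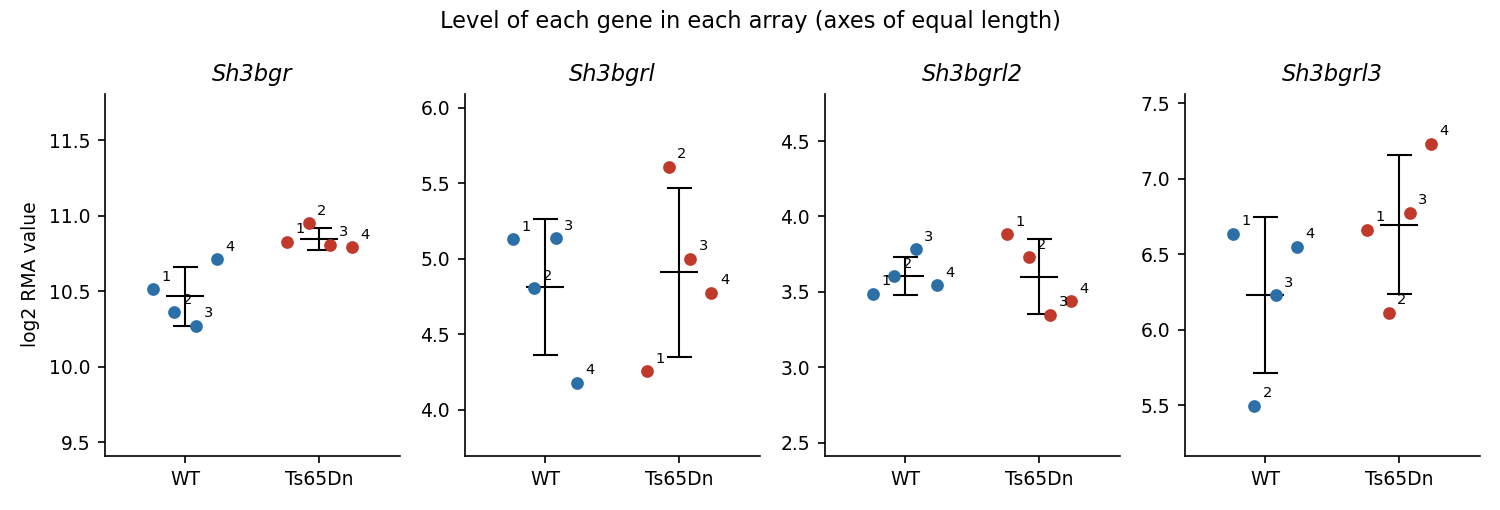
Log2 RMA value of Sh3bgr, Sh3bgrl, Sh3bgrl2 and Sh3bgrl3 in each array of WT (blue) and Ts65Dn (red), with the replicate number beside each point and bars for the mean and SD (n = 4). The axes span equal lengths, and the groups are apart for Sh3bgr alone of the 4 genes.

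The low wild-type values of Sh3bgr came from replicates 2 and 3, the arrays with the narrowest range of values. Without both, the log2 fold change was 0.23 (95% interval -0.041 to 0.50, limma adjusted p = 0.359). Leaving out single arrays gave 0.32 to 0.46. Without wild-type replicate 4, the highest wild-type array for Sh3bgr, the value of 0.46 passed the test (limma adjusted p = 0.0461), in a comparison that then called 2422 genes in place of 1049. Sh3bgr had a positive log2 fold change under all 19 alternatives tried, between 0.23 and 0.56, and passed under 1 of them. As its groups did not overlap, leaving out or weighting arrays could not have turned the sign. Probe set choices, filters, variance models and the replicate block left the value at 0.38. Only rescaling could have reversed it. Quantile normalization gave 0.29, cyclic loess 0.26, centring 0.56 and level matching 0.31. The interval of Sh3bgr lay above 0 in 18 of the 19 alternatives, and held the value of 0.58 in 14 and lay below it in 5. Those 5 were quantile normalization, cyclic loess, level matching, array weights and the fit without both wild-type replicates 2 and 3.

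**Figure D2:**
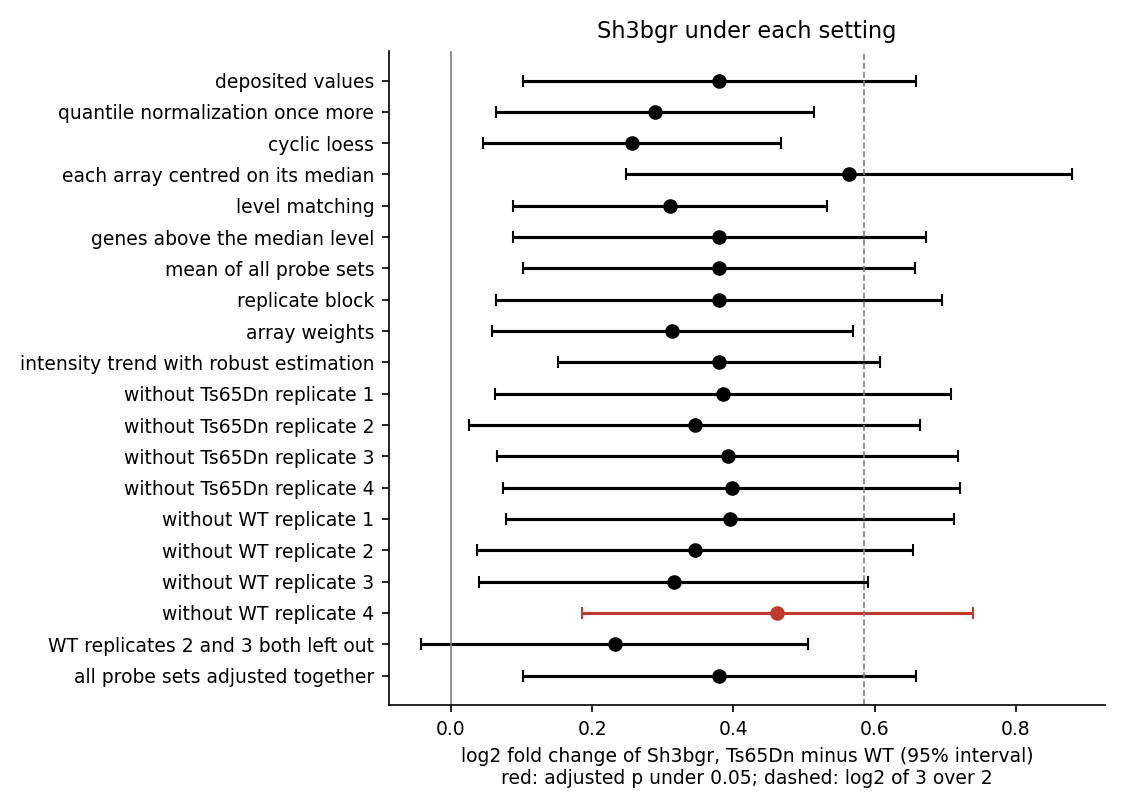
Log2 fold change of Sh3bgr, Ts65Dn minus WT, with its 95% interval by limma for the deposited values and 19 alternatives, 1 per line. The dashed line marks 0.58, the log2 of 3 over 2, and the single red value, 0.46 without WT replicate 4, had an adjusted p under 0.05.

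Of the relatives outside the trisomic segments, 0 of 3 passed the test by limma, beside 5.26% of all genes. At an unadjusted p under 0.05 there were 0 of 3, beside 34.8% of all genes. Sh3bgrl3, a small member that consists of little more than the thioredoxin-like fold, had a log2 fold change of 0.47 (95% interval -0.15 to 1.08, limma adjusted p = 0.244). Its log2 values were 6.66, 6.11, 6.78 and 7.23 in Ts65Dn replicates 1 to 4 and 6.64, 5.50, 6.23 and 6.55 in wild-type replicates 1 to 4. The groups overlapped: Ts65Dn replicates 1, 3 and 4 lay above the highest wild-type value, and Ts65Dn replicate 2 did not. The lowest value was that of wild-type replicate 2. The 100 genes nearest in level had a median log2 fold change of 0.28, and the level-matched value of Sh3bgrl3 was 0.21 (95% interval -0.35 to 0.77).

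Sh3bgrl, the X-linked relative, varied widely within both groups. Its log2 values were 4.25, 5.61, 5.00 and 4.77 in Ts65Dn replicates 1 to 4. In wild type they were 5.13, 4.80, 5.14 and 4.18. Each group held 1 array near 4.2, Ts65Dn replicate 1 and wild-type replicate 4, and the other 3 wild-type values lay within the Ts65Dn range. The log2 fold change was 0.10 (95% interval -0.54 to 0.73, limma adjusted p = 0.825), and it turned to -0.14 without Ts65Dn replicate 2 and to -0.11 without wild-type replicate 4. The 100 genes nearest in level had a median of -0.23, and the level-matched value of Sh3bgrl was 0.33 (95% interval -0.26 to 0.93, limma adjusted p = 0.503).

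Sh3bgrl2 differed least between the groups as deposited. Its log2 values were 3.88, 3.73, 3.35 and 3.44 in Ts65Dn replicates 1 to 4 and 3.49, 3.61, 3.78 and 3.55 in wild-type replicates 1 to 4. Ts65Dn replicate 1 lay above the wild-type range and replicates 3 and 4 below it. The log2 fold change was -0.0057 (95% interval -0.32 to 0.31, limma adjusted p = 0.981). The direction depended on the scaling, since genes of that level had a median of -0.21 and the level-matched value was 0.22 (95% interval -0.082 to 0.51). The deposited table gives no call of whether a probe set is above background, so it is not known whether Sh3bgrl2, at a mean of 3.60 over all arrays, was detected.

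The members differed in how closely replicates lay together, and this sets what could be resolved. The SD within groups was 0.15 for Sh3bgr, 0.20 for Sh3bgrl2, 0.49 for Sh3bgrl3 and 0.51 for Sh3bgrl, beside a median of 0.22 over all genes. The interval of the log2 fold change reached 0.28 to either side for Sh3bgr and 0.32 for Sh3bgrl2. It reached 0.62 for Sh3bgrl3 and 0.64 for Sh3bgrl. For the latter pair a change as large as 0.58 in either direction could not have been resolved at this number of arrays.

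Whether the gene in 3 copies moved otherwise than its relatives was asked by subtracting, in each array, the log2 value of each relative from that of Sh3bgr. The size of such a difference has no meaning between probe sets, and only its change between groups was tested. The test was an exact permutation of the arrays, two-sided, with 70 splits and a smallest possible p of 0.0286. Against Sh3bgrl2 the difference was 6.86 ± 0.30 in wild type and 7.24 ± 0.22 in Ts65Dn (log2, SD, n = 4), higher by 0.39, and 3 of 4 Ts65Dn arrays exceeded every wild-type array (exact permutation p = 0.114, 0.343 adjusted over the 3 pairs compared). Against Sh3bgrl it was higher by 0.28, with 1 of 4 arrays above the range (exact permutation p = 0.514, adjusted 0.771). Against Sh3bgrl3 it was lower, by -0.089, with 0 of 4 arrays above the range (exact permutation p = 0.771, adjusted 0.771).

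A change of Sh3bgr different from that of any relative was thus not shown. The test could not have shown it for 1 pair alone. A p of 0.0286, the smallest possible, does not stay under 0.05 when adjusted for 1 of 3 pairs. With level matching the change was 0.094 against Sh3bgrl2, -0.021 against Sh3bgrl and 0.096 against Sh3bgrl3.

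**Figure D3:**
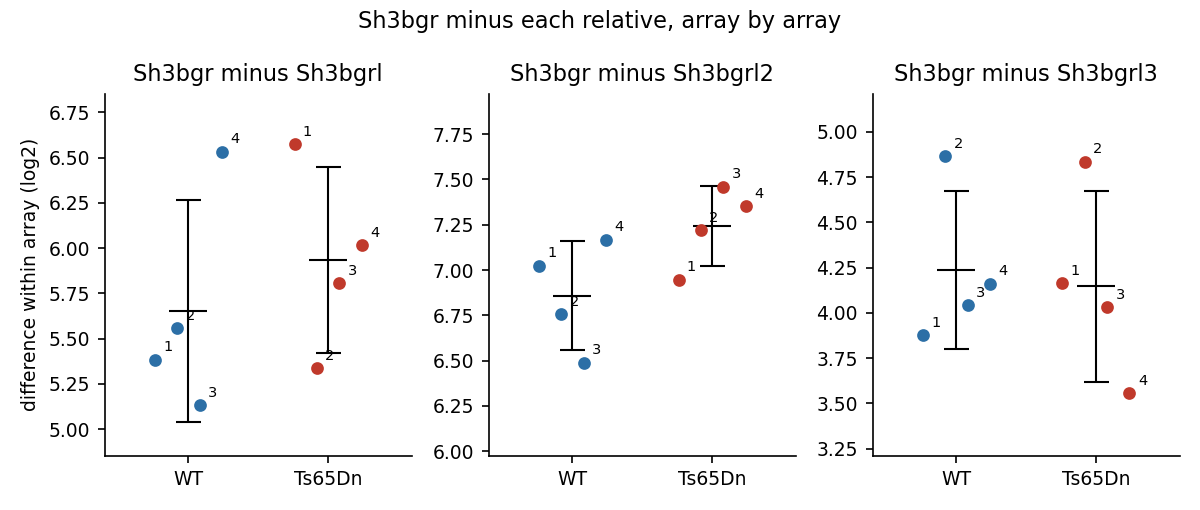
Log2 value of Sh3bgr minus that of Sh3bgrl, Sh3bgrl2 or Sh3bgrl3 within each array, in WT (blue) and Ts65Dn (red), with replicate numbers and bars for the mean and SD (n = 4). The groups overlap in all 3 panels, least against Sh3bgrl2, where 3 of 4 Ts65Dn arrays lie above the WT range.

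Sh3bgr was set beside the 6 measured genes on each side of it in gene order on MMU16, which all have 3 copies in Ts65Dn. Of these 12 genes, 1 was called higher, Brwd1, and 1 lower, Igsf5, beside 2.32% and 2.94% of all genes. Their median log2 fold change was 0.06, against -0.10 over all genes tested. Brwd1, a bromodomain protein of chromatin, rose from 6.17 ± 0.70 in wild type to 7.56 ± 0.15 in Ts65Dn (log2, SD, n = 4), by 1.39 (limma adjusted p = 0.0456). Its log2 values were 7.71, 7.53, 7.37 and 7.64 in Ts65Dn replicates 1 to 4 and 6.85, 6.15, 5.21 and 6.46 in wild-type replicates 1 to 4, so that wild-type replicate 3 was lowest for Brwd1 as for Sh3bgr. Igsf5, an immunoglobulin-like protein of cell junctions, fell by 0.56 (limma adjusted p = 0.0493), and its level-matched value was -0.29. With level matching 0 of the 12 passed, with limma adjusted p-values of 0.0603 for Brwd1 and 0.161 for Igsf5. At an unadjusted p under 0.05, 5 of the 12 were higher and 3 lower in the deposited values, beside 12.3% and 22.6% of all genes.

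The neighbours split by level. All 7 with a mean above 5 had a positive log2 fold change, and all 5 with a mean of 5 or less a negative one. On the side of Ets2, a transcription factor with a value of 1.09, lay Psmg1, a chaperone of proteasome assembly (0.64), Brwd1, the nucleosome-binding Hmgn1 (0.06), Get1, a receptor for the insertion of tail-anchored membrane proteins (0.97), and Lca5l (-0.19). On the other side lay the glycosyltransferase B3galt5 (-0.37), Igsf5, the integrin-like Itgb2l (-0.37), the calmodulin regulator Pcp4 (0.07), the neuronal adhesion molecule Dscam (-0.41) and the protease Bace2 (0.99). None of these apart from Brwd1 and Igsf5 passed, with limma adjusted p-values from 0.0515 for Get1 to 0.802 for Pcp4. The groups did not overlap in 7 of the 12: Ets2, Brwd1, Get1 and Bace2 with Ts65Dn above, beside 6.81% of all genes, and B3galt5, Igsf5 and Itgb2l with Ts65Dn below, beside 15.9%. For Get1 the log2 values were 7.31 to 8.49 in Ts65Dn and 6.46 to 7.16 in wild type. For Bace2 they were 5.37 to 6.96 in Ts65Dn and 4.50 to 5.19 in wild type, and Ts65Dn replicate 1 was the highest.

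The genes next to Sh3bgr on either side, Lca5l and B3galt5, thus had negative values. Without a detection call it is not known whether they were detected, at means of 3.18 and 3.39 over all arrays. Nor is it known for Dscam, at 3.56, and Igsf5, at 3.76. Level-matched, 6 of the 12 were positive, and Lca5l stood at 0.02 and B3galt5 at -0.12. At an unadjusted p under 0.05 in the level-matched fit, 4 of the 12 were higher, beside 11.4% of all genes, and 1 lower, beside 9.44%. The higher ones were Bace2, Ets2 (0.90), Brwd1 (1.05) and Get1 (0.60), and the lower one was Igsf5. Sh3bgr, at 0.31, had an unadjusted p of 0.0112 in that fit.

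**Figure D4:**
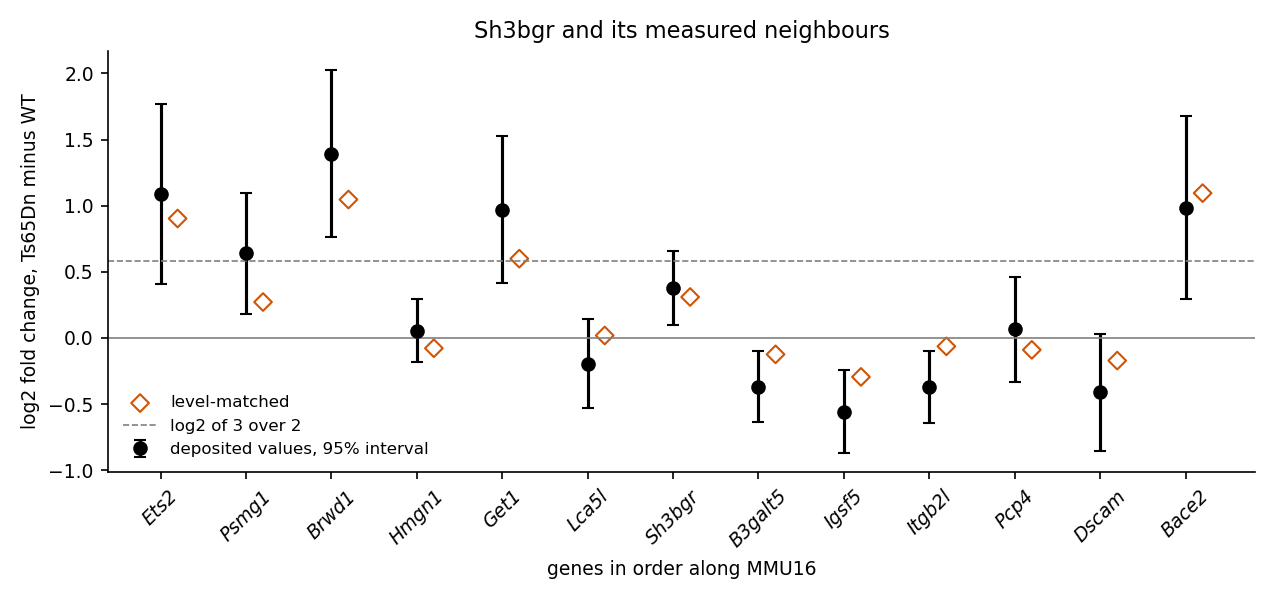
Log2 fold change, Ts65Dn minus WT, of Sh3bgr and the 6 measured genes on each side of it in their order along MMU16, with the 95% interval by limma (black) and the level-matched value (open diamonds). The dashed line marks 0.58, and Sh3bgr at 0.38 stands between negative values of Lca5l and B3galt5, whose detection is not known.

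Genes with a role in striated muscle gave the setting for Sh3bgr among genes of the same tissue. Of 30 genes, all measured, 1 was called higher and 0 lower, beside 2.32% and 2.94% of all genes. At an unadjusted p under 0.05 by limma, 8 were higher and 0 lower, beside 12.3% and 22.6% of all genes, and 26 had a positive log2 fold change, beside 39.2% of all genes. Their median was 0.21 against -0.10 over all genes, and 0.16 level-matched. The called gene was Myom2, a protein of the M-band that links thick filaments (1.09, limma adjusted p = 0.0456), and with level matching it did not pass (0.86, limma adjusted p = 0.101). The next by p were Myoz1, a calcineurin-binding protein of the Z-disc (0.47), Csrp3, the muscle LIM protein (0.51), and the intermediate filament desmin, Des (0.32), with limma adjusted p-values of 0.0518, 0.0571 and 0.0740. The 0.38 of Sh3bgr was exceeded by 6 of the 30, and its level-matched 0.31 by 6.

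The groups did not overlap in 8 of the 30 genes with Ts65Dn higher, beside 6.81% of all genes. They did not overlap in 1 with Ts65Dn lower, beside 15.9% of all genes. The mean of the 30 log2 values lay between 10.32 and 10.48 in Ts65Dn arrays and between 9.98 and 10.25 in wild-type arrays, with the lowest value in wild-type replicate 3, as for Sh3bgr. In whole muscle a larger share of cells that express a gene and more RNA per cell cannot be told apart.

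**Figure D5:**
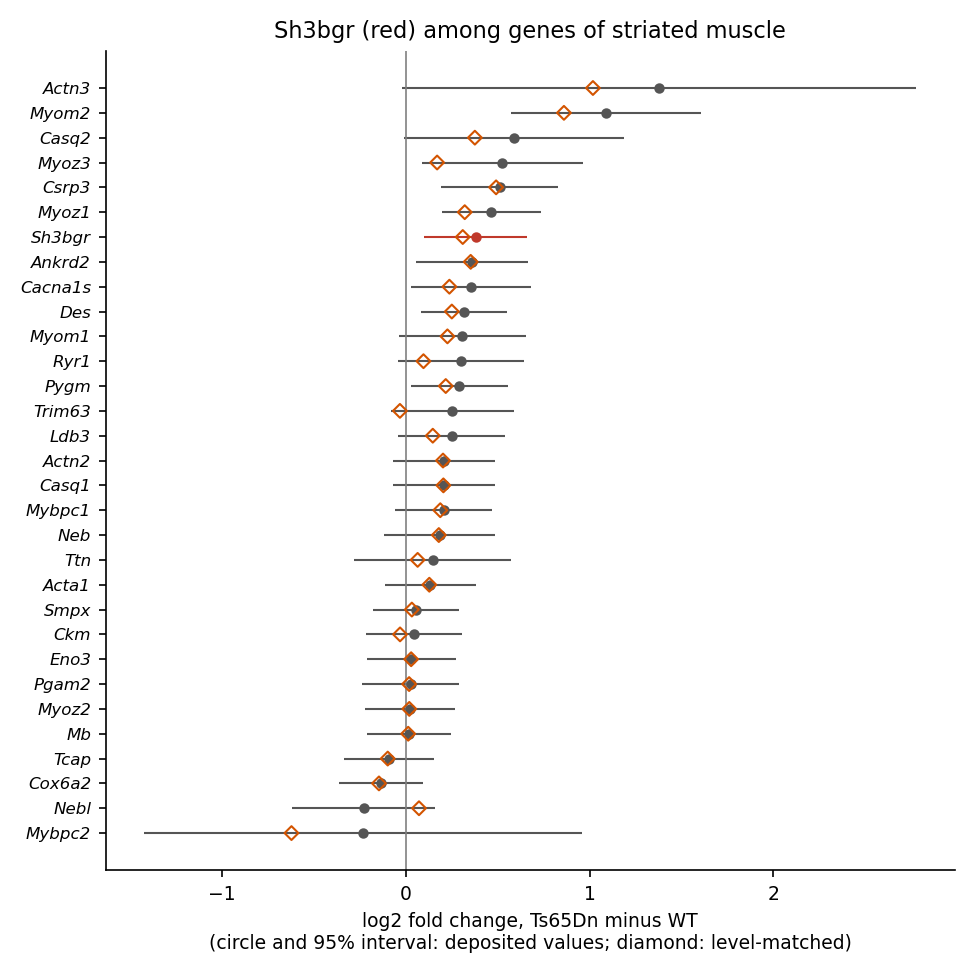
Log2 fold change, Ts65Dn minus WT, of 30 genes of striated muscle (grey) and Sh3bgr (red), with the 95% interval by limma and the level-matched value as an open diamond. Of the 30 genes 26 lie above 0, and 6 lie above Sh3bgr.

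A list of 4 glutaredoxins, with the catalytic cysteines that the Sh3bgr family lacks, also held glutathione reductase and the cysteine-rich Grxcr1 and Grxcr2. Of its 7 genes 6 were measured, and 0 were called by limma. At an unadjusted p under 0.05, 1 was higher and 1 lower, beside 12.3% and 22.6% of all genes. For the cytosolic Glrx the mean was 7.16 ± 0.45 in wild type and 7.73 ± 0.17 in Ts65Dn (log2, SD, n = 4), a difference of 0.57 (limma adjusted p = 0.0889) that was 0.19 level-matched. The mitochondrial Glrx2 had a value of -0.29 (limma adjusted p = 0.113), and -0.41 level-matched. Glutathione reductase, Gsr, stood at 0.27 and Grxcr2 at -0.20. The median of the list was -0.0094, against -0.10 over all genes.

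Of 11 proteins with an EVH1 domain, the kind of domain that binds proline-rich stretches such as that of the family, 0 were called, with 3 higher and 3 lower at an unadjusted p under 0.05, beside 12.3% and 22.6% of all genes. Their median log2 fold change was 0.18, and -0.061 level-matched. Enah, a regulator of actin filament growth, had a value of 0.77 and groups that did not overlap (limma adjusted p = 0.0583). Wasl, an activator of the Arp2/3 complex, stood at 0.46, and the Ras pathway inhibitors Spred1 and Spred3 at 0.67 and -0.50, with limma adjusted p-values from 0.0605 to 0.0746. The scaffolds Homer1, Homer2 and Homer3 had values of 0.35, 0.18 and -0.32, and of 0.0061, -0.061 and -0.16 level-matched.

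The genes whose arrays deviated most like those of Sh3bgr were sought by Pearson's r of the deviations from the group means over the 8 arrays, among 9513 named genes above the median level. They were Tm6sf1, Gmfg, Nipsnap2, Actr6 and Sar1b, with r from 0.974 to 0.985. The deviations of Sh3bgr are mostly those of the wild-type arrays, and the arrays share their scaling, so that such values describe these arrays only. Of the 5, Actr6, a subunit of a chromatin remodelling complex, was called higher (log2 fold change 0.83, limma adjusted p = 0.0456) but not with level matching (limma adjusted p = 0.0530), and the others had values from 0.03 to 0.14. The nearest to Sh3bgrl was Tuba8 (r = 0.964), to Sh3bgrl2 Smad1 (r = 0.942) and to Sh3bgrl3 Ppp1r11 (r = 0.982). None of the 5 nearest of any member lay in a trisomic segment, but only 160 of the 19938 genes measured did.

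Some markers of other cells of the muscle also passed the test between the groups. Of 6 endothelial markers 2 were called higher, Kdr (0.99) and Emcn (1.18), beside 2.32% of all genes, and with level matching Kdr passed (limma adjusted p = 0.0156) and Emcn did not (0.0548). The mean of the 6 lay between 6.07 and 6.31 in Ts65Dn and between 5.15 and 5.74 in wild type. Of 8 macrophage markers 1 was called higher, Cd68 (2.39), beside 2.32% of all genes. Cd68 did not pass with level matching (limma adjusted p = 0.0924). The means of the 8 were 4.53 to 5.16 in Ts65Dn and 4.23 to 4.44 in wild type. The other 7 ran from -0.21 for Cd14 to 0.35 for Ptprc, and the median of the list was 0.19, and 0.42 level-matched. Of 6 fibroblast markers 1 was called higher, Pdgfra (0.62), beside 2.32% of all genes. Pdgfra also passed with level matching (limma adjusted p = 0.0449). Lum (1.02, limma adjusted p = 0.0537) and Dcn (0.35) had positive values, and Col1a1 (-0.35), Col1a2 (-0.24) and Col3a1 (-0.06) negative ones. The means of the 6 were 6.68 to 6.91 in Ts65Dn and 6.52 to 6.65 in wild type. No marker was called among 5 of adipocytes, 4 of smooth muscle, 2 measured of Schwann cells and 2 measured of red blood cells, beside 5.26% of all genes. At an unadjusted p under 0.05 by limma 1 was higher and 1 lower, beside 12.3% and 22.6% of all genes. The list means of these cells overlapped between the groups. Plin1 of adipocytes was lower in every Ts65Dn array than in any wild-type array, as were 15.9% of all genes. Its log2 fold change was -0.34, and -0.13 level-matched, while 2 of the 5 adipocyte markers had positive values. The part of these cells in the values of Sh3bgr and its relatives was not tested.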

How the data were processed

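Expression was measured in 8 soleus muscles on Affymetrix arrays, with 1 array per mouse. Per the submitters' processing notes, Affymetrix Expression Console 1.1 and RMA were used by the authors, at gene level per the labels. The deposited values were read as log2 values from their range, and the build is not given in the sources used here. The platform annotation gave 1 symbol for 21789 of 35556 probe sets, more than 1 for 1621 and no symbol for 12146. RefSeq (GRCm38.p6) updated 21698 symbols by Entrez identifier, 91 were kept, and RefSeq also gave gene order and chromosomes. Per gene the probe set with the highest mean was used, which left 19938 genes. The members each had 1 probe set.

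Groups were compared by limma 3.58.1 (lmFit, eBayes) in R 4.3.3. Tests were two-sided and p-values were adjusted over the 19938 genes (Benjamini-Hochberg), with calls made under 0.05. Tested on simulated data for the same 8 arrays and 19938 genes, it recovered 78% of log2 changes of 1 and 97% of those of 2, with genes drawn independently. Python 3.11.15, pandas 2.3.3 and matplotlib 3.10.9 prepared tables and plots. Members, gene lists and alternatives were chosen with earlier results of these data known. Besides the members, genes named are the 6 measured neighbours on each side, and called genes and up to 4 of smallest p per list. The 5 most alike per member are also named, without predicted genes, receptor families and small RNAs. Homer1 to Homer3, Plin1, Cd14, Ptprc, Lum, Dcn and the collagens were named after their values were seen. Alternatives were other scalings, filters, variance models, a replicate block and arrays left out.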

Additional observations from a re-analysis of the deposited data

How the results depend on the processing

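The count of 1049 called genes depended on nearly every choice. It was 0 by limma with quantile normalization (4369 at an unadjusted p under 0.05) and 142 with cyclic loess, 89 with level matching, 436 among genes above the median level, 236 with array weights, 1 without both wild-type replicates 2 and 3 and 1 with all probe sets adjusted together. Leaving out single arrays gave 0 to 2865, with 5271 to 7708 at an unadjusted p under 0.05. It was 2865 and 2422 without wild-type replicates 1 and 4, and 0 or 1 without any other array. With the replicate number as a block it was 0, with 7014 genes at an unadjusted p under 0.05, and Sh3bgr stood at 0.38 (limma adjusted p = 0.0979). Same-numbered arrays of the groups correlated by only 0.0117 to 0.0913 in their deviations over genes, and 4 of 8 arrays correlated best with their own number, so the numbers were not taken as pairs. Centring each array gave 911 higher and 79 lower calls in place of 462 and 587.

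Sh3bgr kept its direction under all 19 alternatives, of which only the rescalings could have reversed it. Its log2 fold change was 0.32 to 0.46 with single arrays left out. It passed only without wild-type replicate 4 (0.46), and over the alternatives its adjusted p ran from 0.0461 to 0.359. Sh3bgrl3 kept its direction too, at 0.22 to 0.66 with single arrays left out, and did not pass. Sh3bgrl ran from -0.14 to 0.32 with single arrays left out, and was reversed without Ts65Dn replicate 2 (-0.14) and wild-type replicate 4 (-0.11). Against 0.10 as deposited, it was 0.24 with quantile normalization, 0.31 with cyclic loess, 0.28 with centring and 0.33 with level matching.

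Sh3bgrl2 was reversed under 9 of 18 alternatives. It was 0.23 with quantile normalization, 0.26 with cyclic loess, 0.18 with centring, 0.22 with level matching, 0.024 with array weights and 0.083 without wild-type replicates 2 and 3. Leaving out single arrays gave -0.10 to 0.078, with 0.078 and 0.047 without Ts65Dn replicates 3 and 4 and 0.053 without wild-type replicate 3. It lies below the median level, so that filter gave no value for it. The cause of these reversals was not tested.

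The change of Sh3bgr relative to Sh3bgrl was reversed with cyclic loess (-0.057), level matching (-0.021) and without wild-type replicates 2 and 3 (-0.024), and was 0.07 to 0.58 with single arrays left out. Relative to Sh3bgrl2 it was 0.26 to 0.49 with single arrays left out, but 0.0018 with cyclic loess, 0.061 with quantile normalization and 0.15 without wild-type replicates 2 and 3. Relative to Sh3bgrl3 it was reversed with quantile normalization (0.039), level matching (0.096), without Ts65Dn replicate 4 (0.11), wild-type replicate 2 (0.12) and both wild-type replicates 2 and 3 (0.13), and ran from -0.32 to 0.12 with single arrays left out. None of these passed, and 1 pair alone could not have passed after adjustment. Without both wild-type replicates 2 and 3 the splits were too few for any p under 0.05.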
